A study of Mus musculus with 2 samples.

Results

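The genes examined were the 4 Notch receptors (Notch1, Notch2, Notch3 and Notch4), 4 of their membrane-bound ligands (Dll1, Dll4, Jag1 and Jag2) and 2 transcriptional targets (Hey1 and Heyl), 10 of the 32285 genes in the count matrices. They were chosen by gene symbol as a pathway, by a rule that uses no measured value but with earlier results of these data known, and each symbol matched 1 row. All 10 had UMIs in both libraries. The matrices came from 2 scRNA-seq libraries of temporomandibular joints (TMJ) from C57BL/6 mice that had received complete Freund's adjuvant (CFA), an emulsion that provokes joint inflammation, into the joint. In 1 library the mice were wild type (WT). In the other they were Prox1 mutant, described in the methods as Prox1+/-, a heterozygous loss carried by all cells and not restricted to lymphatic vessels. The animals were labelled as 8 to 10 weeks old and described in the study as female. The number of mice behind each library was not given in the sources used here, and no library without CFA was analysed.

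Notch signalling passes between touching cells. A Delta-like or Jagged ligand on 1 cell binds a receptor on its neighbour, proteases release the receptor's intracellular part, and that fragment joins the DNA-binding protein Rbpj in the nucleus and switches on genes of the Hes and Hey families. In blood vessels the pathway is known for arterial identity and sprouting, which involve Dll4, Notch1 and Notch4 in the endothelium, and for the muscle coat of arteries, which depends on Jag1 in the endothelium and Notch3 in the mural cells. In skeletal muscle it is known for keeping satellite cells, the muscle stem cells, quiescent.

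On GRCm38 the receptor genes lie on chromosome 2 (Notch1, 26457903 to 26516663, minus strand), chromosome 3 (Notch2, 98013527 to 98150361, plus strand) and chromosome 17 (Notch3, 32120820 to 32166852, minus strand, and Notch4, 34564268 to 34588503, plus strand). The ligand genes lie on chromosome 17 (Dll1, 15367354 to 15376872, minus strand), chromosome 2 (Dll4, 119325784 to 119335962, plus strand, and Jag1, 137081456 to 137116644, minus strand) and chromosome 12 (Jag2, 112907819 to 112929776, minus strand). The target genes lie on chromosome 3 (Hey1, 8663359 to 8667256, minus strand) and chromosome 4 (Heyl, 123233556 to 123249875, plus strand). All 10 are annotated as protein-coding, and a UMI was counted for the gene as a whole.

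The promoters of the 3 ligands that separate the vessel compartments below, and of the target gene Hey2, are shown because Hes and Hey proteins bind DNA at sites such as CACGCG and Rbpj at TGGGAA, the letters through which targets of the pathway are read. Windows of 300 bases, from 250 before to 50 after the RefSeq gene start on GRCm38.p6, were read 5′ to 3′ on the gene's strand for 8 of the 10 members. Capitals mark CACGCG or its reverse complement CGCGTG in the ligand windows, and TGGGAA or its reverse complement TTCCCA in the Hey2 window.
Dll4, chr2:119325534-119325833, plus strand: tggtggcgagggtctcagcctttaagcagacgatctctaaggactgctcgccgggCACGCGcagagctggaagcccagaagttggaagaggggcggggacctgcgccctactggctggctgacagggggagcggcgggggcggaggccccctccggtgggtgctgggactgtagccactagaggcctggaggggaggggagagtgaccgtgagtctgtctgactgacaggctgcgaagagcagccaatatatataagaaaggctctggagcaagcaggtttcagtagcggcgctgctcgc
Jag1, chr2:137116471-137116770, minus strand: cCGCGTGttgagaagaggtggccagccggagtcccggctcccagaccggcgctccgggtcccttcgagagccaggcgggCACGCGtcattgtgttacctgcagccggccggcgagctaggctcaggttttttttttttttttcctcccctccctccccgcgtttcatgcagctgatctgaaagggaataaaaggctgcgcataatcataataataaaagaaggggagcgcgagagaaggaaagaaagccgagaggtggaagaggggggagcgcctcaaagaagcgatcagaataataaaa
Jag2, chr12:112929446-112929745, minus strand: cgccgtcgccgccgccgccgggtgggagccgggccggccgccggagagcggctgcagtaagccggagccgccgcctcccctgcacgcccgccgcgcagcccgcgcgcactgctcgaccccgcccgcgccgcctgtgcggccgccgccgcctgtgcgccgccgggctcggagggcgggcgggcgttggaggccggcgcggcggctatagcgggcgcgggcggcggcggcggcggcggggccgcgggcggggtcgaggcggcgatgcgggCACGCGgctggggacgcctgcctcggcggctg
Hey2, chr10:30842734-30843033, minus strand: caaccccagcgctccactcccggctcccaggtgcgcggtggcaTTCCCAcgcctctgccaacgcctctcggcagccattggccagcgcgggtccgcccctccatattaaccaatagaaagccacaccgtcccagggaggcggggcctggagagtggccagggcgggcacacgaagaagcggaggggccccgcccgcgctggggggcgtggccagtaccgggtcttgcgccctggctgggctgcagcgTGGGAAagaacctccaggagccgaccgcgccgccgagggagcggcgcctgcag

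CACGCG was present on either strand in 9.27% of 32851 RefSeq promoter windows of the same length, and in 5 of the 8 members with a window: Dll1, Dll4, Jag1, Jag2 and Notch2. Counted from the gene start, its first base stood at -195 in Dll4, at -171 in Jag1, with CGCGTG at -249, and at 19 in Jag2. The member windows held between 55.7% and 86.0% G and C, against a median of 52.7% over all windows, and the part of base composition in these matches was not tested. TGGGAA was present in 25.6% of all windows and in none of the 8 members, and CACGTG, which shares CACG with CACGCG, in 7.15% of all windows and in none of the members. In Hey2, TGGGAA began at -3 and TTCCCA at -207. Each of these is a match of letters in 1 of 9 motifs searched, not a measured site, and Hey1 and Heyl have no window in the table.

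The WT library held 5709 barcodes with 53517206 UMIs and the mutant library 7846 barcodes with 62446987 UMIs. After the study's filters, 4352 WT and 5757 mutant cells remained, with median depths of 6997 and 4848 UMIs. They formed 45 clusters, of which 34 took a cell type name from marker genes, written below as "-like". Unnamed clusters held 13.9% of the WT and 31.4% of the mutant cells. The libraries shared 10 barcodes, 4 of them among the kept cells. Levels are given as CPM, the gene's UMIs per 1000000 UMIs of the cells in question. Each condition is 1 library, so every interval is a 95% interval for counting error only (exact Poisson for CPM, Clopper-Pearson for shares of cells, exact binomial for ratios), no replicate error exists, and no p-value was computed. Levels were compared between cell types for 1 gene at a time, never between genes. A gene counted as higher or lower in a comparison within libraries when its CPM differed at least 2-fold in the same direction in each library, with at least 10 UMIs over the 2 cell types in each.

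The endothelial-like cells numbered 1041 in WT and 522 in the mutant, and were 23.9% and 9.07% of the kept cells. A further 2 clusters with all 8 endothelial markers raised, 221 WT and 292 mutant cells, were left unnamed for their low depth (medians of 1215 and 1523 UMIs). With them the shares are 29.0% and 14.1%, and the members counted in the comparisons of all endothelial-like cells are the same in number. All 8 endothelial markers were detected in them. They divided into capillary-like cells (750 WT, 352 mutant), venous-like cells (145 and 78), arterial-like cells (134 and 80) and lymphatic-like cells (12 and 12). The connexin genes Gja4 and Gja5, markers of arterial endothelium, are among the markers used to name the arterial-like cells. They stood at 350.3 and 265.0 CPM in the WT arterial-like cells and at 5.09 CPM each in the WT capillary-like cells. This difference therefore follows in part from the naming. Mural-like cells, which wrap the endothelium, numbered 213 and 124, mostly smooth muscle-like cells (167 and 90) with a small set of pericyte-like cells (29 and 17). The mutated gene Prox1, the master regulator of lymphatic identity and also 1 of the markers used to name the lymphatic-like cells, had 1010 CPM (223 UMIs) in the 12 WT and 265.5 CPM (42 UMIs) in the 12 mutant lymphatic-like cells. In muscle satellite-like cells, which also held Prox1, it lay the other way, at 312.3 CPM (203 UMIs) in WT against 486.9 CPM (122 UMIs) in the mutant. In venous-like cells it was at 25.7 and 44.8 CPM. Venous-like subclusters of 16 WT and 12 mutant cells and of 18 and 2 cells had lymphatic marker scores of 0.54 and 0.51, below their venous scores of 0.96 and 0.93. The part of these cells in the venous-like values was not tested.

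**Figure D1:**
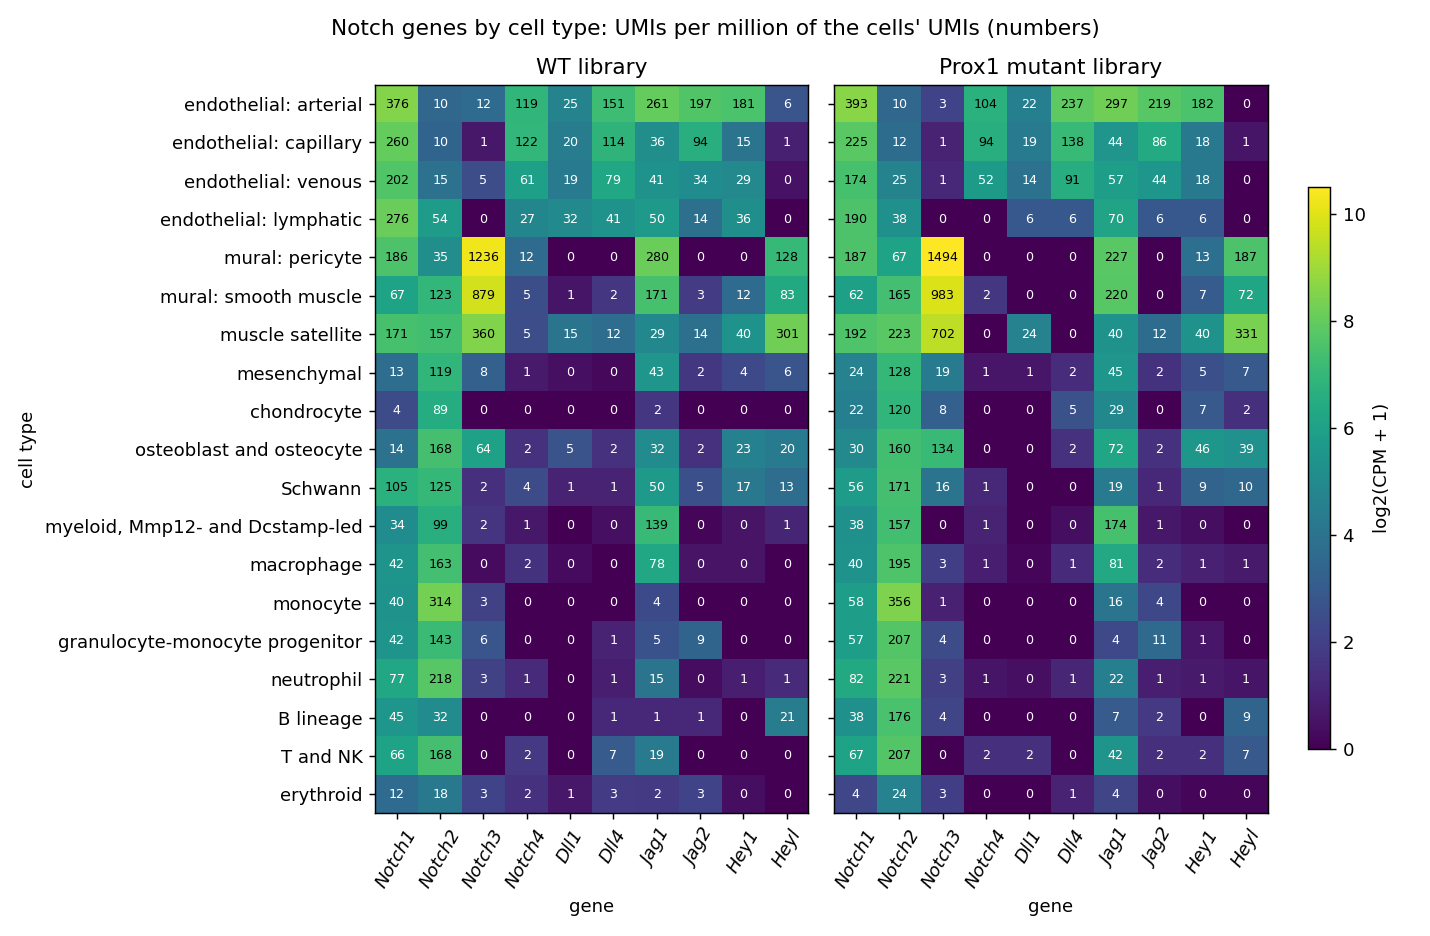
Levels of the 10 Notch genes (columns) in the named cell types (rows) in the WT and Prox1 mutant libraries, as CPM, with the value printed in each field. Notch4, Dll4 and Jag2 stand out in the endothelial rows, Dll1 is low but present in the endothelial and muscle satellite rows, Notch3 in the mural rows, Heyl in the muscle satellite and mural rows, and Notch2 in most rows outside the endothelium.

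The 4 receptors had different cellular distributions. Notch1 and Notch4 were highest in endothelial-like cells, Notch3 in mural-like cells, and Notch2 was spread over immune and stromal cell types with little in the endothelium. Of all UMIs of each gene in kept cells, endothelial-like cells held 51.3% of Notch1 in WT and 35.5% in the mutant, 86.5% and 79.3% of Notch4, and 1.69% and 1.05% of Notch2. Mural-like cells held 80.0% of the Notch3 UMIs in WT and 72.3% in the mutant. These shares move with the number of cells of each type in a library. The levels below do not, but those over all endothelial-like or all mural-like cells still move with the mix of subtypes.

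Notch1, the receptor required for vessel formation, was at 376.0 CPM (342.2 to 412.2) in WT arterial-like cells and 393.4 CPM (353.5 to 436.6) in mutant arterial-like cells, the first place among the 17 types with at least 20 cells in both libraries. Capillary-like cells followed at 260.0 CPM in WT and 225.4 in the mutant. Venous-like cells had 201.6 and 174.3 CPM. The arterial-like level lay above the capillary-like level beyond counting error in both libraries, by 1.45-fold (1.29 to 1.62) in WT and 1.75-fold (1.51 to 2.01) in the mutant. It stayed under 2-fold. Muscle satellite-like cells came next, at 170.7 CPM in WT, where the interval overlapped that of venous-like cells, and at 191.6 CPM in the mutant, where it overlapped those of capillary-like and venous-like cells. Below them stood a gap and then a run of types whose neighbours mostly overlapped. The run began with Schwann-like cells in WT (104.8 CPM) and neutrophil-like cells in the mutant (82.1 CPM). It ended with chondrocyte-like cells in WT (4.30 CPM) and erythroid-like cells in the mutant (3.75 CPM). The WT erythroid-like cells had 11.7 CPM.

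Detection of Notch1 in single cells gave the same order for the arterial-like and capillary-like cells. Cells with at least 2000 UMIs were thinned to 2000 UMIs, and shallower cells were left out of the thinned shares here and below. Notch1 was then detected in 56.4% (47.5 to 65.0) of WT and 57.5% (45.9 to 68.5) of mutant arterial-like cells. In capillary-like cells the thinned shares were 39.6% (35.8 to 43.4) and 36.9% (31.9 to 42.2). Without thinning, over all cells of each type, the shares were 83.6% and 95% in arterial-like and 59.2% and 66.2% in capillary-like cells. In erythroid-like cells, which should lack the gene, thinned detection was 1.68% and 0.485%, and unthinned detection 6.49% and 2.91%, at median depths of 9160.5 and 9394 UMIs.

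Notch4, a receptor largely restricted to endothelium, was at 122.4 CPM (110.8 to 134.8) in WT capillary-like cells and 119.3 CPM (100.6 to 140.4) in WT arterial-like cells, with overlapping intervals. In the mutant the levels were 93.7 CPM (80.7 to 108.2) and 104.5 CPM (84.4 to 127.8), again overlapping. Venous-like cells were lower, at 60.6 CPM (51.1 to 71.3) and 52.3 CPM (41.7 to 64.7). Among the types with at least 20 cells in both libraries, smooth muscle-like cells were highest outside the endothelium, at 4.78 and 2.17 CPM. The WT pericyte-like cells, with 1 UMI, were at 11.7 CPM. Notch4 therefore set venous-like apart from arterial-like cells by 1.97-fold (1.55 to 2.50) in WT and 1.998-fold (1.47 to 2.71) in the mutant, while arterial-like and capillary-like cells did not differ beyond counting error.

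Notch3, the receptor of arterial smooth muscle, was at 878.9 CPM (837.0 to 922.2) in WT against 982.8 CPM (931.2 to 1037) in mutant smooth muscle-like cells. Pericyte-like cells had 1236 CPM (1012 to 1494) and 1494 CPM (1230 to 1797). Muscle satellite-like cells were the next type, at 360.0 CPM (315.3 to 409.1) in WT against 702.4 CPM (602.5 to 814.2) in the mutant, followed by the osteoblast and osteocyte-like cells at 64.3 and 133.6 CPM. No other type with at least 20 cells in both libraries exceeded 18.5 CPM. After thinning, Notch3 was detected in 77.6% of WT and 84.3% of mutant mural-like cells and in 44.7% and 74.3% of satellite-like cells. Erythroid-like cells gave 0% (upper limit 1.23%) and 0.485%, and without thinning the mural-like shares were 96.7% and 97.6%.

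Notch2 had its highest level in monocyte-like cells, at 313.7 CPM (279.6 to 350.8) in WT against 355.5 CPM (320.1 to 393.8) in the mutant. Neutrophil-like cells had 218.1 and 221.4 CPM, macrophage-like cells 163.1 and 195.3 CPM, and mesenchymal-like cells 119.0 and 128.1 CPM. Most neighbours in this order overlapped. Endothelial-like cells stood at the other end, at 12.7 CPM (10.3 to 15.6) and 17.0 CPM (13.5 to 21.2), beside erythroid-like cells at 18.0 CPM (13.7 to 23.1) and 24.4 CPM (20.8 to 28.5). The capillary-like level, 9.57 CPM (6.55 to 13.5) and 12.2 CPM (7.79 to 18.1), lay below the erythroid-like level beyond counting error in both libraries, whereas venous-like cells, at 14.7 and 24.9 CPM, overlapped it.

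Dll4 and Jag2 were highest in the endothelium, Dll1 was at like levels in the endothelium and in satellite-like cells, and Jag1 was shared by arterial endothelium, mural cells and a myeloid cluster. Dll4, the ligand of arterial and sprouting endothelium, was at 150.7 CPM (129.6 to 174.3) in WT against 236.7 CPM (206.0 to 270.7) in mutant arterial-like cells. Capillary-like cells had 113.7 CPM (102.6 to 125.7) and 138.3 CPM (122.3 to 155.7), and venous-like cells 78.7 CPM (67.8 to 90.8) and 90.9 CPM (76.7 to 106.9). The 3 intervals did not overlap in either library, so the order arterial-like, capillary-like, venous-like held in both. The first step was 1.33-fold (1.10 to 1.59) in WT and 1.71-fold (1.42 to 2.06) in the mutant. Among the other types with at least 20 cells in both libraries, satellite-like cells were highest in WT, at 12.3 CPM. Chondrocyte-like cells were highest in the mutant, at 5.05 CPM.

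Jag2, a ligand for the same receptors, stepped down along the vessel types in the same order. It was at 197.1 CPM (172.9 to 223.8) in WT against 218.9 CPM (189.4 to 251.7) in mutant arterial-like cells, at 93.95 and 85.6 CPM in capillary-like cells, and at 33.7 and 44.2 CPM in venous-like cells. The 3 intervals were separate in each library. Satellite-like cells (13.8 and 12.0 CPM) and granulocyte-monocyte progenitor-like cells (9.38 and 11.2 CPM) had the largest levels outside the endothelium.

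Dll1 rested on few UMIs, 204 in WT and 115 in the mutant, of which endothelial-like cells held 73.5% and 70.4%. Its level was 24.8 CPM (16.8 to 35.5) in WT arterial-like, 20.05 CPM in capillary-like and 19.4 CPM in venous-like cells, and 22.2, 18.7 and 14.3 CPM in the mutant. All intervals overlapped, so no difference among the blood vessel types was detectable at this depth. Satellite-like cells were within the same range, at 15.4 CPM (10 UMIs) and 23.9 CPM (6 UMIs).

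Jag1, the ligand through which arterial endothelium and smooth muscle contact each other, was at 260.9 CPM (232.9 to 291.3) in WT against 296.7 CPM (262.2 to 334.5) in mutant arterial-like cells. Smooth muscle-like cells followed at 171.4 CPM (153.2 to 191.2) and 219.6 CPM (195.6 to 245.8), and pericyte-like cells, with 24 and 17 UMIs, had 279.8 and 226.7 CPM. A myeloid cluster of 259 WT and 191 mutant cells had 139.4 CPM (131.6 to 147.4) and 173.6 CPM (163.6 to 184.0). This cluster took the name osteoclast-like from 3 markers, but its leading genes were Mmp12, H2-M2, Cxcl3, Dcstamp and Itgax, and its summed macrophage markers reached 2156 and 2123 CPM, so it is called here the Mmp12-led myeloid cluster. The intervals of arterial-like cells, smooth muscle-like cells and this cluster were separate in each library. Macrophage-like cells came next, at 78.0 and 80.9 CPM. Capillary-like cells had only 35.6 and 43.6 CPM and venous-like cells 40.8 and 56.6 CPM, with overlapping intervals in both libraries.

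The 2 targets led in different cell types. Hey1, a transcriptional repressor downstream of Notch, was at 181.4 CPM (158.2 to 207.1) in WT against 182.3 CPM (155.4 to 212.4) in mutant arterial-like cells. The next types were satellite-like cells in WT (39.99 CPM, 26 UMIs) and the osteoblast and osteocyte-like cells in the mutant (46.4 CPM, 25 UMIs). Venous-like cells had 29.5 and 18.1 CPM and capillary-like cells 15.3 and 18.2 CPM. Thinned detection was 30.8% (23.1 to 39.4) and 33.8% (23.6 to 45.2) in arterial-like cells against 2.07% and 3.12% in capillary-like cells, 0% in the erythroid-like cells of either library (upper limits 1.23% and 0.595%), and without thinning 60.4% and 66.2% against 5.60% and 8.52%.

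Heyl, a second repressor of the family, had its highest level in muscle satellite-like cells, at 301.5 CPM (260.8 to 346.8) in WT against 331.3 CPM (263.8 to 410.6) in the mutant. Smooth muscle-like cells had 82.8 CPM (70.3 to 96.9) and 71.8 CPM (58.3 to 87.4), and pericyte-like cells 128.2 CPM (11 UMIs) and 186.7 CPM (14 UMIs). Endothelial-like cells as a whole had 11 UMIs in WT, 6 of them in 1 cell, and 1 UMI in the mutant. Of the types with at least 20 cells in both libraries, arterial-like cells thus led for Hey1 in each, and satellite-like cells for Heyl.

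Arterial-like endothelium was set against capillary-like endothelium to describe the arterial side of the pathway. The arterial-like cells had a capillary marker score of 0.58, below their arterial score of 0.99. A capillary-like subcluster of 81 WT and 41 mutant cells had an arterial score of 0.58, the highest of the capillary-like subclusters, below its capillary score of 0.82. The part of this overlap in the ratios was not tested. Jag1, Jag2 and Hey1 were higher in arterial-like cells, 3 of the 8 members that could be compared, and 0 were lower. By the same rule 5.14% of the 10740 genes compared were higher and 4.73% lower. Hey1 was higher by 11.9-fold (8.73 to 16.5) in WT and 10.0-fold (6.93 to 14.8) in the mutant, and Jag1 by 7.33-fold (5.92 to 9.13) and 6.81-fold (5.32 to 8.79). The size for Hey1 moved with the processing: its log2 ratios of 3.57 and 3.32 became 1.94 and 1.69 with log-normalization, where those of Jag1 were 2.80 and 2.40. Jag2 was 2.10-fold (1.77 to 2.49) and 2.56-fold (2.07 to 3.16) higher. Over the 8 members the median log2 ratio was 0.47 in WT and 0.79 in the mutant, beside 0.02 and -0.12 over all genes compared.

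The other members did not reach 2-fold. Dll4 and Notch1 were above 1 in both libraries, as given above, and Notch4, Notch2 and Dll1 had intervals that held a ratio of 1 in both. Summed mural markers in arterial-like cells stood at 650.1 CPM in WT and 228.9 in the mutant (all 9 detected in each). The part of these markers in the Jag1 ratio was not tested.

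**Figure D2:**
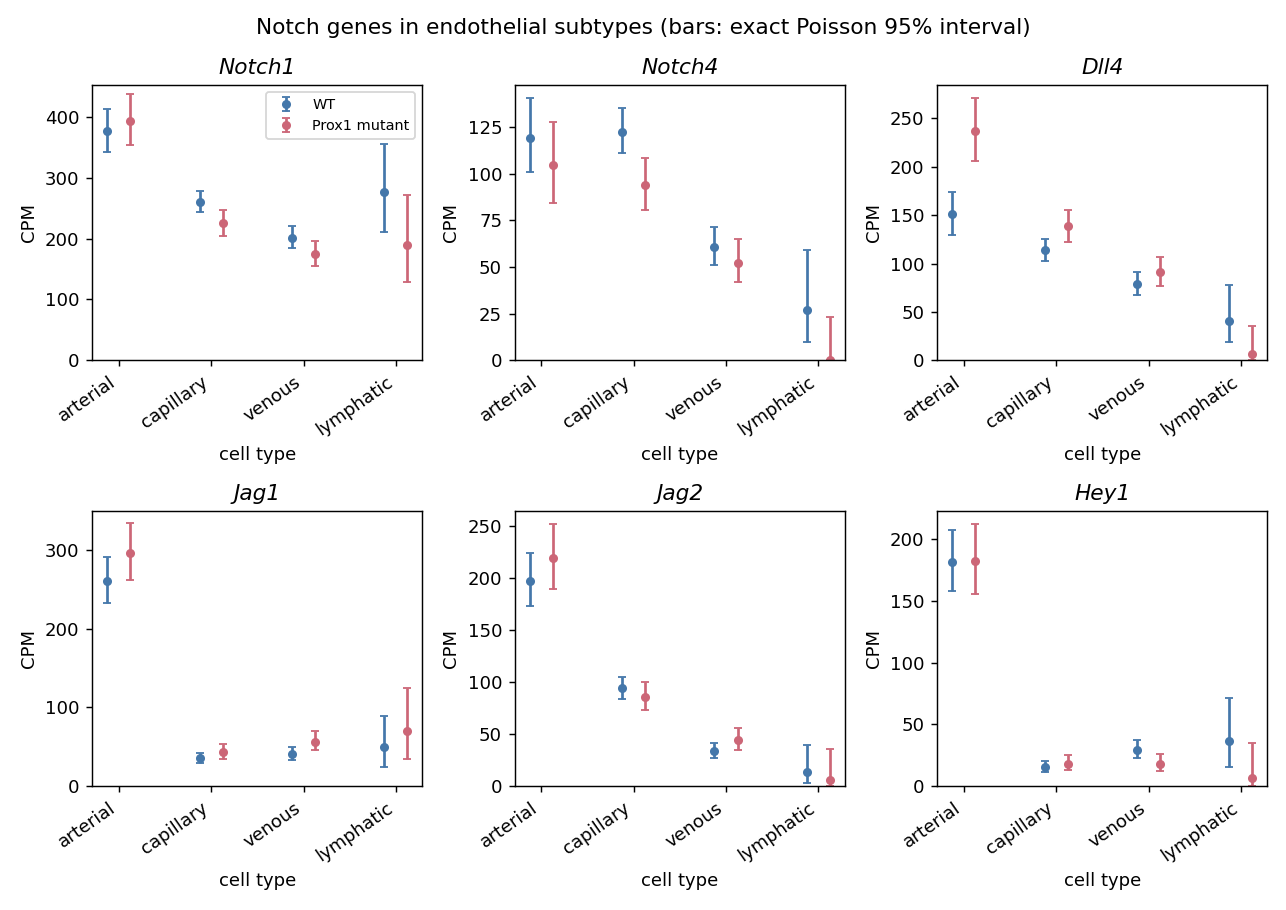
CPM of the Notch genes (panels) in arterial-like, capillary-like, venous-like and lymphatic-like endothelial cells of the WT and Prox1 mutant libraries, with bars for the exact Poisson 95% interval (counting error only). Jag1 and Hey1 stand high in arterial-like cells alone, Jag2 and Dll4 step down from arterial-like to venous-like cells, and the 12 lymphatic-like cells of each library give wide intervals.

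The comparison with venous-like cells uses the same arterial-like cells. Jag1, Jag2 and Hey1 were higher in arterial-like cells and 0 of the 8 members compared were lower, beside 4.77% higher and 5.81% lower of the 10545 genes compared. Jag2 was 5.86-fold (4.53 to 7.64) higher in WT and 4.95-fold (3.76 to 6.59) in the mutant, a larger step than against capillary-like cells in both libraries. Dll4 was 1.92-fold and 2.60-fold higher and Notch1 1.87-fold and 2.26-fold, so each passed 2-fold in the mutant only. Notch2, with 12 and 9 UMIs in arterial-like cells, was 1.48-fold and 2.49-fold lower and likewise passed in the mutant only. Notch4, at 1.97-fold and 1.998-fold higher, stayed just under 2-fold in both. Whether the libraries differ in this was not tested. The median log2 ratio of the 8 members was 0.96 in WT and 1.28 in the mutant, against 0.00 and -0.05 over all genes.

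Other genes of the pathway were taken from a list of 40. In the arterial-like to capillary-like comparison 0 of the 32 that could be compared were higher and 1 was lower. The shares over all genes compared were 5.14% and 4.73%. The lower pathway gene was Neurl1b, an E3 ligase that acts on Notch ligands, at 4.14 against 44.9 CPM in WT and 7.78 against 47.1 CPM in the mutant. Against venous-like cells, 2 of 32 were higher and 3 lower, beside 4.77% and 5.81% of all genes compared. The higher ones were Efnb2, the ephrin of arterial endothelium (2.28-fold, 1.99 to 2.60, and 3.12-fold, 2.66 to 3.68), and Unc5b, a netrin receptor of endothelium (2.83-fold and 3.05-fold). The lower ones were Maml3, a nuclear coactivator of the pathway, Lfng, a sugar transferase that modifies the receptors, and Neurl1b, by 2.45-fold, 2.11-fold and 4.27-fold in WT and 2.39-fold, 2.12-fold and 2.56-fold in the mutant.

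Whether ligand and target occurred in the same cells was described after thinning to 2000 UMIs. Cells below that depth were left out, and 964 WT and 522 mutant endothelial-like cells remained. Over all endothelial-like cells, Hey1 was detected in 17.2% (10.3 to 26.1) of the WT cells with a Jag1 UMI and in 5.90% (4.42 to 7.68) of those without. In the mutant the shares were 20.5% (12.2 to 31.2) and 5.41% (3.49 to 7.94). Within arterial-like cells alone the shares with and without a Jag1 UMI were 32.5% and 30.1% in WT and 38.9% and 29.5% in the mutant, and all 4 intervals overlapped. Arterial-like cells held more of both genes than the other endothelial-like cells.

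The lymphatic-like cells, whose identity Prox1 regulates, numbered 12 in each library and held 220891 and 158181 UMIs in all. A subcluster of 5 WT and 4 mutant cells had a median of 33180 UMIs, against 3317 UMIs in the other lymphatic-like subcluster. The summed levels therefore rest more on these deep cells. Notch2 was higher in lymphatic-like than in capillary-like cells and Notch4, Dll4 and Jag2 were lower, 1 and 3 of the 8 members compared. By the same rule 9.33% of the 10215 genes compared were higher and 6.23% lower. Notch2 was at 54.3 CPM (12 UMIs) in WT against 37.9 CPM (6 UMIs) in the mutant, against 9.57 and 12.2 CPM in capillary-like cells. The ratio was 5.67-fold (2.66 to 11.3) and 3.12-fold (1.04 to 7.84), but 7 of the 12 WT UMIs came from 1 cell. Notch4 was at 27.2 CPM (6 UMIs) in WT and at 0 UMIs in the mutant. With 0 set to 3 UMIs the mutant value was 4.94-fold lower than in capillary-like cells, and the exact interval began at 3.98-fold.

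Dll4 in lymphatic-like cells was at 40.7 CPM (9 UMIs) in WT, 2.79-fold (1.45 to 6.15) below capillary-like cells, and at 1 UMI in the mutant. Jag2 was at 3 UMIs and 1 UMI. Notch1 stood at 276.2 CPM (211.2 to 354.7) in WT, with 27 of 61 UMIs in 1 cell, and at 189.7 CPM (128.0 to 270.7) in the mutant, both overlapping the capillary-like level. The median log2 ratio of the members was 0.29 in WT and -1.55 in the mutant, beside 0.11 and 0.07 over all genes. The mutant median lies between Dll1 and Hey1, each with 1 UMI in these cells. Both intervals held a ratio of 1, so no drop of the members as a set can be read from it. Of the pathway list 4 of 30 were higher (Lfng, Psen2, Aph1b and Dtx1) and 2 lower (Nrarp and Neurl1b), beside 9.33% and 6.23% of all genes. Dtx1, an E3 ligase that binds the Notch intracellular domain, was at 113.2 CPM in WT and 139.1 in the mutant. It had 0 UMIs in the capillary-like cells of both libraries, and with 0 set to 3 UMIs the ratios were 126-fold and 91.5-fold. The summed venous markers stood at 2445 and 2782 CPM in these cells, with all 7 detected, and their part in these results was not tested.

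Mural-like cells were set against all endothelial-like cells to describe how the 2 layers of the vessel wall divide the pathway. All 10 members could be compared and each passed 2-fold in both libraries. Notch2, Notch3, Jag1 and Heyl were higher in mural-like cells, and Notch1, Notch4, Dll1, Dll4, Jag2 and Hey1 were lower. These counts of 4 and 6 stand beside 13.8% higher and 16% lower of the 13066 genes compared. The median log2 ratio of the members was -1.43 in WT and -1.42 in the mutant, against -0.16 and -0.22 over all genes.

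Notch3 was 235-fold (161 to 357) higher in WT and 699-fold (338 to 1741) in the mutant, where endothelial-like cells had 27 and 7 UMIs. Heyl was 52.8-fold (28.8 to 108) higher in WT, and in the mutant the endothelial-like cells held a single UMI. Notch2 was 8.98-fold (7.04 to 11.5) and 8.65-fold (6.69 to 11.3) higher, and Jag1 2.31-fold (2.02 to 2.64) and 2.35-fold (2.05 to 2.70). The Jag1 contrast holds for the endothelium as a whole, since arterial-like cells alone exceeded smooth muscle-like cells in both libraries.

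On the endothelial side, Dll4 was 33.0-fold (15.9 to 82.4) and 29.0-fold (14.6 to 67.4) higher than in mural-like cells. Notch4 was 9.74-fold (6.38 to 15.6) and 19.0-fold (9.12 to 47.5) higher and Jag2 9.21-fold and 22.9-fold. Notch1 differed less, by 2.80-fold (2.42 to 3.25) and 2.90-fold (2.43 to 3.48), and Hey1 by 2.59-fold (1.87 to 3.67) and 2.48-fold (1.72 to 3.66). Hey1 did not pass 2-fold with a filter of 1000 genes and 5% mitochondrial UMIs, where its log2 ratios of mural-like over endothelial-like cells were -0.59 and -0.65. A mural subcluster of 11 WT and 4 mutant cells carried endothelial markers at 3564 CPM in sum, against a median of 257.6 CPM over the mural subclusters, and held 19 of the 41 mural Hey1 UMIs in WT and 19 of 34 in the mutant. Without this subcluster mural-like Hey1 was at 10.9 and 9.28 CPM, below the capillary-like levels. Dll4 was then at 1.98 and 0 CPM and Jag2 at 2.47 and 0 CPM. All 10 members kept their direction past 2-fold against all endothelial-like cells.

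Of the 40 pathway genes, 36 could be compared between mural-like and endothelial-like cells. Among these, 7 were higher and 8 lower, beside 13.8% and 16% of all genes compared. Of the higher ones, Hey2, the third Hey repressor, was at 43.6 against 1.26 CPM in WT and 38.9 against 1.94 CPM in the mutant, 34.6-fold (17.5 to 78.1) and 20.04-fold (9.94 to 45.7). Dlk1, a ligand-like protein without the receptor-activating domain, had 0 UMIs in the endothelial-like cells of both libraries and was at least 10.9-fold and 25.5-fold higher in mural-like cells. Dtx4 and Dtx3, members of the Deltex family, were 13.8-fold and 6.07-fold higher in WT and 41.0-fold and 8.09-fold in the mutant. Hes1, Nrarp and Numbl made up the rest. Of the lower ones, Mfng, a sugar transferase of the fringe family, stood at 0.459 against 35.7 CPM in WT and 1.77 against 37.7 CPM in the mutant, and Lfng at 5.51 against 28.0 and 2.36 against 18.3 CPM. The others were Efnb2, Unc5b, Maml2, Adam10, Numb and Dtx1.

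**Figure D3:**
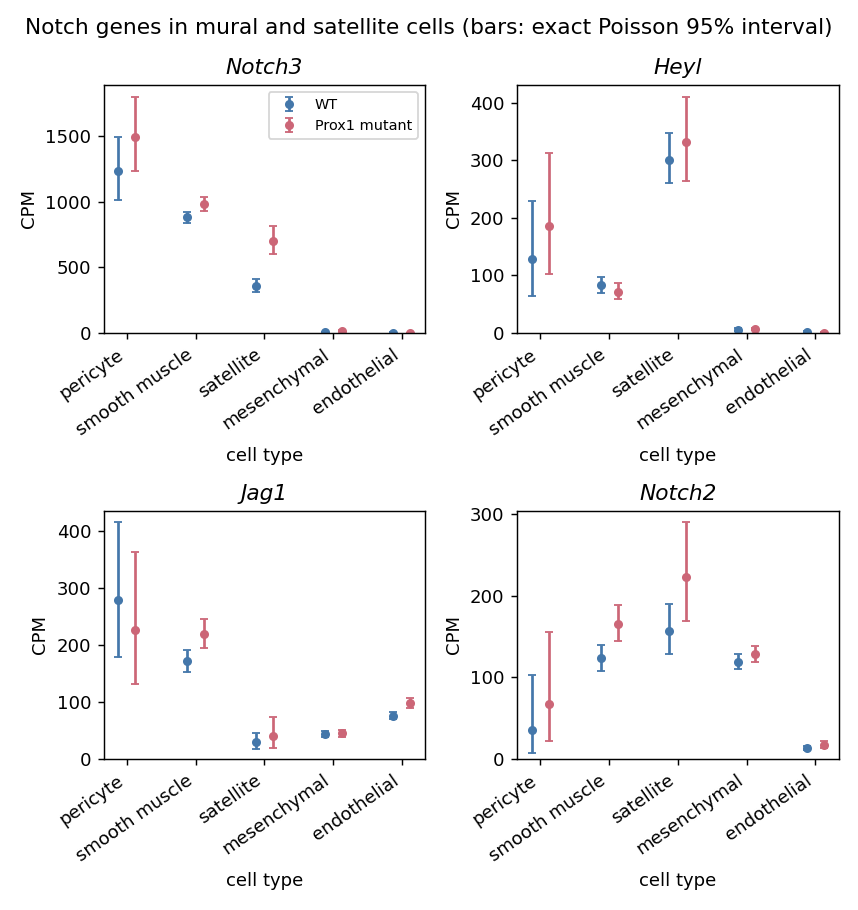
CPM of receptors, ligands and targets (panels) in endothelial-like, pericyte-like, smooth muscle-like, muscle satellite-like and mesenchymal-like cells of both libraries, with bars for the exact Poisson 95% interval (counting error only). Notch3 is high in both mural types and in satellite-like cells, and Heyl is highest in satellite-like cells.

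Of the mural types, the pericyte-like cells were few, which limits what their comparison with smooth muscle-like cells can show. Notch1 was higher in pericyte-like cells and Notch2 lower, 1 and 1 of the 6 members compared, beside 18.4% higher and 5.64% lower of the 9557 genes compared. Notch1 was at 186.5 against 67.4 CPM in WT and 186.7 against 61.6 CPM in the mutant, 2.77-fold (1.53 to 4.67) and 3.03-fold (1.59 to 5.37). The Notch1 call was lost in 6 of 16 alternatives, and its log2 ratios of 1.47 and 1.60 became -0.29 and 0.07 with putative doublets removed. Notch2 was at 34.97 CPM (3 UMIs) and 66.7 CPM (5 UMIs) in pericyte-like cells, 3.52-fold (1.19 to 17.2) and 2.48-fold (1.05 to 7.71) below smooth muscle-like cells.

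Notch3 was 1.41-fold (1.14 to 1.71) and 1.52-fold (1.24 to 1.84) higher in pericyte-like cells, and the median log2 ratio of all genes compared was itself 0.43 in WT and 0.54 in the mutant, beside 0.67 and 0.74 over the members. The pericyte-like cells were few and shallow, with median depths of 2596 and 4287 UMIs against 9987 and 14433 in smooth muscle-like cells. Of the pathway list, 5 of 31 were higher (Dtx2, Dtx3, Maml2, Maml3 and Itch) and 3 lower (Nrarp, Hes1 and Efnb2). Over all genes compared, 18.4% were higher and 5.64% lower. Hes1, a target gene shared by many tissues, was at 163.2 against 430.9 CPM in WT and 360.1 against 847.3 CPM in the mutant. Nrarp, a feedback target of the pathway, was at 1 UMI against 102.4 CPM in WT and 53.3 against 139.9 CPM in the mutant.

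Outside the vessels, muscle satellite-like cells carried receptors and targets together. They numbered 89 in WT and 35 in the mutant, and their marker Pax7, the transcription factor of muscle stem cells, stood at 735.3 and 1197 CPM. Against mesenchymal-like cells, Notch1, Notch3, Jag2, Hey1 and Heyl were higher and 0 lower among the 7 members compared, beside 8.47% higher and 9.62% lower of the 12801 genes compared. Heyl was 51.5-fold (35.7 to 76.5) and 49.5-fold (33.0 to 75.7) higher, Notch3 42.7-fold (31.2 to 59.3) and 37.9-fold (29.4 to 49.0), and Notch1 13.6-fold (10.0 to 18.5) and 7.95-fold (5.58 to 11.2). The median log2 ratio of the members was 3.34 in WT and 2.99 in the mutant, against -0.09 and 0.21 over all genes.

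Hey1 in satellite-like cells was 10.1-fold (5.54 to 18.5) and 8.03-fold (3.45 to 17.2) above mesenchymal-like cells, with 7 of the 26 WT UMIs in 1 cell, and Jag2 rested on 9 and 3 UMIs. Notch2 and Jag1 stayed under 2-fold. Thinned detection of Heyl was 45.9% (35.02 to 57.04) and 40% (23.9 to 57.9) in satellite-like cells against 1.38% and 2.04% in mesenchymal-like cells, and unthinned detection 80.9% and 80.0% against 5.48% and 4.32%. Within satellite-like cells, Heyl was detected in 39.5% of the WT cells with a Notch3 UMI and 51.1% of those without, and in 38.5% and 44.4% in the mutant, with overlapping intervals. Of the pathway list, 1 of 33 was higher, Dtx4 (6.26-fold, 4.73 to 8.24, and 18.5-fold, 12.9 to 26.4), and 1 lower, Maml3 (3.02-fold and 2.04-fold). The shares over all genes compared were 8.47% higher and 9.62% lower.

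Prox1 mutant and WT libraries were compared to ask whether the pathway differed between them. With 1 library each, genotype and library cannot be told apart. In endothelial-like cells 0 of the 8 members with at least 50 UMIs passed 2-fold in either direction, where 2.02% of the 10704 genes compared were higher and 1.92% lower in the mutant. In mural-like cells 0 of 6 passed, where 1.34% of 8081 genes were higher and 2.17% lower. The members' median log2 ratio of mutant over WT was 0.06 in endothelial-like and 0.17 in mural-like cells, against 0.04 and -0.03 over all genes.

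Several members differed beyond counting error while staying under 2-fold. In endothelial-like cells Dll4 was 1.29-fold (1.16 to 1.43) and Jag1 1.29-fold (1.14 to 1.47) higher in the mutant, and Notch4 1.26-fold (1.11 to 1.43) and Notch1 1.09-fold (1.01 to 1.18) lower. The Dll4 difference was 1.57-fold (1.28 to 1.93) in arterial-like cells and 1.22-fold (1.04 to 1.42) in capillary-like cells. The Jag1 ratio of mutant over WT was 1.14 (0.963 to 1.34) in arterial-like, 1.22 (0.916 to 1.63) in capillary-like and 1.39 (1.03 to 1.87) in venous-like cells. Arterial-like cells made up 12.9% of the WT and 15.3% of the mutant endothelial-like cells, and the part of this shift in the value over all endothelial-like cells was not tested. In mural-like cells Notch3 was 1.19-fold (1.11 to 1.27), Notch2 1.29-fold (1.08 to 1.54) and Jag1 1.32-fold (1.14 to 1.52) higher in the mutant.

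**Figure D4:**
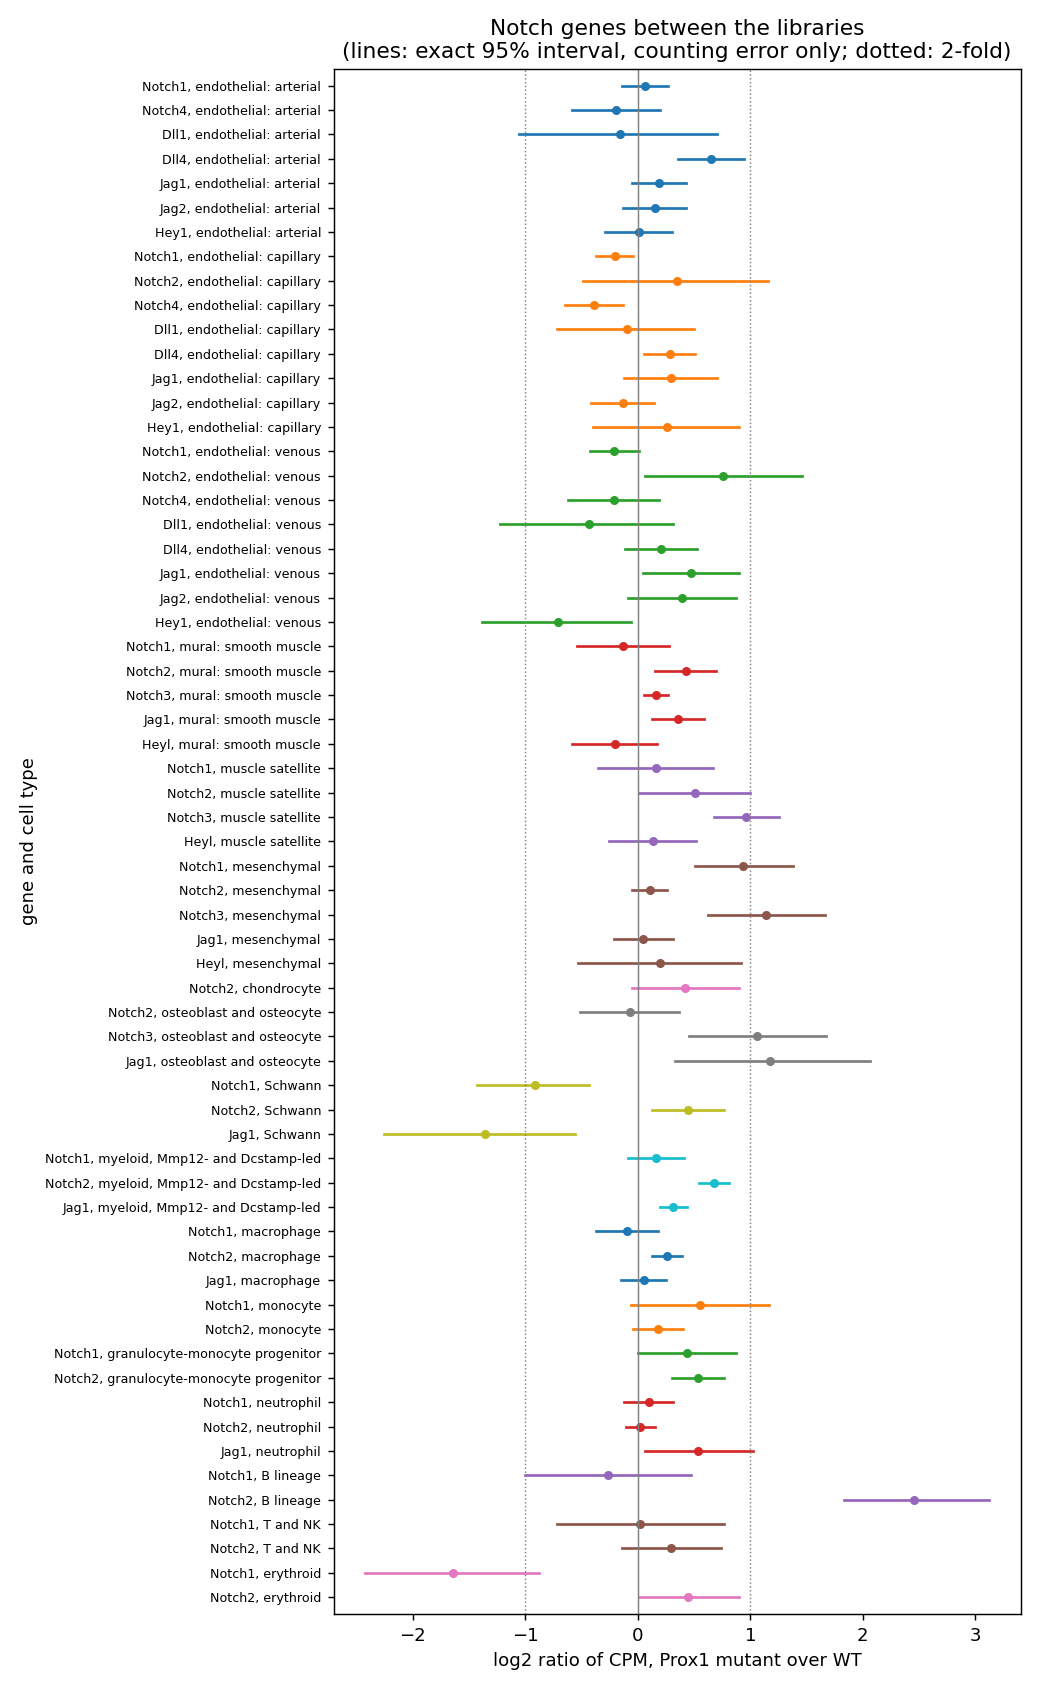
log2 ratio of CPM, Prox1 mutant over WT, for Notch genes in the 17 cell types with at least 20 cells in both libraries. A gene is shown in a type where both libraries together hold at least 50 of its UMIs. Lines give the exact binomial 95% interval (counting error only), and dotted lines mark 2-fold. Lymphatic-like and pericyte-like cells are not shown. All endothelial and mural points shown lie inside the dotted lines, and Notch2 in the B lineage lies farthest to the right at 2.45.

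Outside endothelial-like and mural-like cells, 13 cell types had at least 20 cells in both libraries. In these, 6 of the 35 member and cell type combinations with at least 50 UMIs passed 2-fold in either direction. The share over all 88966 gene and cell type combinations was 8.66%. Notch2 in B lineage-like cells differed most, in a type where 7.79% of the genes compared were higher in the mutant. It was at 32.2 CPM (20.8 to 47.5) in 147 WT cells against 175.8 CPM (148.8 to 206.3) in 118 mutant cells, 5.47-fold (3.56 to 8.72), and 5.76-fold with the cell richest in Notch2 left out of each library. Thinned detection was 6.72% (2.95 to 12.8) and 28.0% (19.1 to 38.2), and unthinned detection 12.9% and 44.1%. Summed B lineage markers stood at 19023 CPM in WT and 14687 in the mutant cells, neutrophil markers at 339.6 and 2231 CPM, monocyte markers at 492.7 and 789.0 CPM and erythroid markers at 104.2 and 4057 CPM, and their part in the Notch2 difference was not tested.

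The other differences past 2-fold were smaller. Jag1 was 2.56-fold lower in the mutant in Schwann-like cells (49.7 and 19.4 CPM), where 5.16% of genes were lower. Notch1 was 3.12-fold lower in erythroid-like cells (11.7 and 3.75 CPM, 39 and 25 UMIs), where 7.33% were lower. Erythroid-like cells were taken above as a type that should lack Notch1, and the part of background UMIs in this value was not tested. Notch3 was 2.20-fold (1.54 to 3.17) higher in mesenchymal-like cells and 2.08-fold (1.37 to 3.19) higher in the osteoblast and osteocyte-like cells, and Jag1 2.25-fold (1.26 to 4.18) higher in the latter, which numbered 28 and 21. In mesenchymal-like cells 4.04% of genes were higher, and in the osteoblast and osteocyte-like cells 8.34%. Notch3 in satellite-like cells came close, at 1.95-fold (1.60 to 2.38), with 360.0 CPM in WT and 702.4 in the mutant.

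Of the 40 pathway genes, 0 were higher and 1 of 33 lower in the mutant endothelial-like cells, and 0 of 28 passed in mural-like cells. By the same rule, 2.02% of all genes compared were higher and 1.92% lower in endothelial-like cells. In mural-like cells the shares were 1.34% and 2.17%. The 1 pathway gene that was lower was Psen2, a catalytic subunit of gamma-secretase, the protease that releases the Notch intracellular domain. It was at 43.2 CPM (309 UMIs) in WT against 16.6 CPM (77 UMIs) in the mutant, 2.60-fold lower. In venous-like cells it was at 80.4 and 14.9 CPM, 5.38-fold lower, and in arterial-like cells at 37.3 and 12.2 CPM, 3.05-fold lower. In capillary-like cells, the most numerous type, it was at 16.8 CPM (56 UMIs) and 18.2 CPM (36 UMIs), a ratio of mutant over WT of 1.09 (0.695 to 1.68).

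For 7 members, all but Notch2, Dll1 and Jag2, the genes whose levels followed them most closely were named by the highest Pearson r of log2(CPM + 5) over 30 points, 15 cell types in each of the 2 libraries, among 13696 genes with at least 200 UMIs. The points share libraries, depth and clustering, so r is a description with no p. Dll4 was followed by She (r = 0.99), Tmem44 and Nos3, the nitric oxide synthase of endothelium, and Notch4 by Acer2 (r = 0.99), Kif26a and Arhgef15. Notch3 was followed by Speg (r = 0.96), Des and Vtn, and Heyl by Hdac11 (r = 0.96), Des and Map2, so that Des, the intermediate filament of muscle, was near both. Hey1 was nearest to Cx3cl1 (r = 0.92), a chemokine of endothelium, Tead2 and Pik3r3. Jag1 (Kif1c, r = 0.87, Epha4 and Rhoc) and Notch1 (Ralgapa1, r = 0.88, Rlim and Numb) had lower values of r, and Numb is itself an inhibitor of Notch receptors.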

How the data were processed

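Dissociated TMJ cells were captured in droplets and sequenced from the 3′ end of transcripts; the labels name the v2 and the methods the v3.1 chemistry, and the enzymes named differ too. The authors aligned reads to GRCm38 (mm10) by Cell Ranger 7.0.1, and the deposited values are raw, not normalized UMI counts per gene and barcode. Whether introns were counted or doublets removed is not given in the sources used here. Kept cells had at least 500 genes and under 10% mitochondrial UMIs. They were normalized by SCTransform (sctransform 0.4.2), integrated by anchors over 3000 features and clustered with 200 principal components at resolution 1.5 in Seurat 5.3.0 and R 4.3.3. Endothelial and mural subclusters used 30 components and resolution 0.8. The 10 members and 40 pathway genes were left out of the clustering features, and no naming marker is among them. A cluster needed 3 raised markers for a name. Scrublet (scanpy 1.11.5) called 0 doublets at its automatic threshold in either library, so none were removed, and an alternative removed the 239 WT and 462 mutant barcodes of highest score.

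UMIs were summed per library and cell type, divided by all UMIs of those cells and multiplied by 1000000 (Python 3.11.15, scipy 1.17.1). A type at 0 UMIs was set to 3 UMIs in a ratio. Ratios between libraries needed 50 UMIs over both, and by cell type they are given for types with at least 20 cells in each. Pathway genes are named where they passed 2-fold in both libraries, at most 6 per comparison with values. Depth limits single values: 1 UMI in the 12 mutant lymphatic-like cells is 6.32 CPM. The interval code was tested on data simulated with counting error only, which does not cover uneven counts between cells. The members, lists, tests and alternatives were chosen with earlier results of these data known; the subcluster naming rule and 2 alternatives were set after marker levels were seen. Samples were grouped by the genotype label, with 1 library per group, so no test over samples was possible. Sequences are from RefSeq and gene positions from the GRCm38 annotation.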

Additional observations from a re-analysis of the deposited data

Results flagged for a closer look

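Clusters without a cell type name stood outside the comparisons. A member was singled out there when its level was at least 5 times the median of the named types, above their 90th percentile, and rested on at least 10 UMIs in each library. Jag1 in unnamed cluster 24 (52 WT and 103 mutant cells, led by Malt1, Pid1, Cacna1d and Tbc1d9, with Nos2 and Cd86 among its leading genes) was at 249.1 CPM (199.5 to 307.2, 87 UMIs) in WT and 267.2 CPM (227.9 to 311.4, 164 UMIs) in the mutant, in the range of arterial-like endothelium, while Dll4 had 0 UMIs there in both libraries. Hey1 in unnamed cluster 31 (85 WT and 29 mutant cells, led by Dok6, Plppr1, Gpc5 and Rspo4) was at 138.2 CPM (117.8 to 161.2, 162 UMIs) in WT and 76.75 CPM (52.8 to 107.8, 33 UMIs) in the mutant, below the arterial-like level in both.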

How the results depend on the processing

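No paired analysis was possible because each condition has 1 library. The members counted as higher in arterial-like than capillary-like cells ranged from 2 to 4 over the 16 alternatives, those higher in mural-like than endothelial-like cells from 3 to 4 and those lower from 5 to 6, and between libraries 0 passed in mural-like cells throughout. Of the comparisons repeated under the alternatives, the pericyte-like to smooth muscle-like comparison was the least settled. Comparisons of arterial-like with venous-like, lymphatic-like with capillary-like and satellite-like with mesenchymal-like cells were not among those repeated. Nor were the ratios between libraries outside endothelial-like and mural-like cells. Members higher in pericyte-like cells numbered 0 with a filter of 1000 genes and 5% mitochondrial UMIs, with doublets removed, without integration and with log-normalization, and 2, Jag2 and Hey1, with cells named by marker scores. The 1 member higher with 30 principal components was Hey1, so Notch1 was not called in 6 of 16 alternatives. Members lower numbered 0 with that filter and with marker scores. The Notch1 log2 ratio in WT reversed to -0.29 with doublets removed. Between mural-like and endothelial-like cells Hey1 did not pass 2-fold with the filter of 1000 genes, nor did Jag1 with doublets removed (0.97 in the mutant). The Hey1 log2 ratio of arterial-like over capillary-like cells ranged from 1.94 to 4.03 for WT, and for the mutant from 1.69 to 3.68. With log-normalization 1 member, Notch2, was lower in arterial-like than capillary-like cells. With a filter of 200 genes and 20% mitochondrial UMIs 1 member, Notch3, passed 2-fold between libraries in endothelial-like cells, at a log2 ratio of -2.29. The cause was not tested in any of these. Of the log2 ratios of members in the repeated comparisons, 979 kept their direction and side of 2-fold, 12 passed it newly, 17 no longer passed and 1 reversed. Jag2 in WT arterial-like against capillary-like cells lost its call in 3 of 16 alternatives and was lowest, at 0.81, with resolution 0.4 for subclusters. Lymphatic-like and pericyte-like values rest on few cells, and differences under their intervals were not detectable at this depth.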
